A study of Mus musculus with 55 samples.

Results

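The data described here are the open chromatin regions of 6 mouse genes, Srebf1, Srebf2, Scap, Insig1, Insig2 and Stard4, in macrophages. A region was taken where the deposited annotation assigned it to 1 of these genes and placed it at most 100 kb from that gene's start, which gave 40 of the 97113 regions. Insig1 had 16 of them, Insig2 8, Srebf1 and Srebf2 5 each, Scap 4 and Stard4 2. The regions came from an assay for transposase-accessible chromatin (ATAC-seq), and histone H3 lysine 27 acetylation (H3K27ac, a mark of active promoters and enhancers) and the acetyltransferase p300 had been counted in them by chromatin immunoprecipitation sequencing (ChIP-seq). H3K27ac was counted in 1000 bp around each region centre and p300 in 200 bp, so neighbouring H3K27ac windows share reads and the 40 regions merge into only 28 separate stretches.

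The cells were bone marrow-derived macrophages from C57BL/6 mice, grown from marrow with macrophage colony-stimulating factor (from L-cell medium, then added to the culture) and starved of serum overnight in every group. The treated groups received 3'-sialyllactose (3'SL, a human milk oligosaccharide) at 100 µg/ml together with lipopolysaccharide (LPS, a bacterial Toll-like receptor 4 ligand) at 10 ng/ml, or LPS alone, or 3'SL alone, and the vehicle group received phosphate-buffered saline (PBS), each for 2 h or 6 h. Every treated group had 2 libraries of each mark. The vehicle group also had 2 libraries of each mark at each time, but not all could be matched to a column of values. Those used were 2 H3K27ac libraries at 2 h, 1 H3K27ac library at 6 h and 1 p300 library at each time. All came from replicate 2 except 1 of the H3K27ac libraries at 2 h. Every p300 comparison with vehicle and every 6 h comparison with vehicle therefore rests on 1 vehicle library. Peak lists of the nuclear receptor LXR, of SREBP and of p300 were also used, those of LXR and SREBP from cells given 1 µM GW3965, a compound that activates LXR, over 18 h. Nothing in the labels ties the replicates to separate animals, so the p-values measure the spread between these libraries only.

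The labels are not of one piece. The replicate 1 H3K27ac libraries titled as 2 h carry a treatment label of 1 h, and the replicate 2 H3K27ac libraries titled as 3'SL with LPS carry source labels of input and, for the 2 h one, a treatment label of vehicle. Titles and column names were followed here. In the replicate 2 H3K27ac libraries, those with the odd labels included, 72.4 to 79.3% of reads lay in the open regions, in replicate 1 53.9 to 64.8%, and in the 2 inputs 8.65 to 8.8%. Depth was 11.39 to 16.84 M reads (replicate 1) and 4.2 to 39.6 M (replicate 2) for H3K27ac, and 13.56 to 18.13 M and 3.2 to 8.75 M for p300, where 6.12 to 9.42% and 20.1 to 27.5% of reads lay in the regions. The regions nearest to the starts of 7 of 7 macrophage marker genes (Adgre1, Csf1r, Cd68, Itgam, Spi1, Mertk, Fcgr1) summed to 2056 to 3690 normalised H3K27ac tags a library. The lowest of them singly, Mertk, had 8.01 to 168. Beside these, the neutrophil gene S100a8 alone had 11.2 to 73.6, within the range of Mertk. The dendritic cell genes Flt3 and Zbtb46 together had 1.31 to 11.4 and the fibroblast gene Col1a1 0 to 4.74. Only 1 of 4 listed neutrophil genes, 1 of 3 fibroblast genes and no T cell or B cell marker had an open region within 1 kb of its start. Their part in the results below was not tested.

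The genes belong to the machinery that keeps the cholesterol of a cell constant. SREBP-1 (Srebf1) and SREBP-2 (Srebf2) are transcription factors made as membrane proteins of the endoplasmic reticulum, where SCAP, a sterol sensor, escorts them. When sterols are plentiful, the INSIG proteins hold SCAP back; when they are scarce, SCAP carries SREBP to the Golgi, where proteases release the part that enters the nucleus and switches on genes of cholesterol and fatty acid synthesis. Srebf1 has alternative starts that give SREBP-1a and SREBP-1c, and the SREBP-1c promoter is a known target of LXR. Insig1 and Srebf2 are themselves SREBP targets, and Stard4, a carrier protein that moves cholesterol between membranes, is another, which makes it a readout of the pathway.

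The sequences shown first are those of the promoters and of the intronic region on which the results turn. They were read from the RefSeq promoter table and genome (GRCm38.p6, the mm10 build), 5′ to 3′, with the letters named in each line in capitals. Motifs were searched on both strands: the sterol regulatory element TCACNCCAC, an LXR element written as GGTNA, 5 free bases and GGTNA, the NF-Y box CCAAT, the Sp1 box GGGCGG, and a kappa B element written as GGGA, 4 free bases and CC.
Srebf1, SREBP-1c promoter, chr11:60210422-60210721, minus strand, LXR element in capitals: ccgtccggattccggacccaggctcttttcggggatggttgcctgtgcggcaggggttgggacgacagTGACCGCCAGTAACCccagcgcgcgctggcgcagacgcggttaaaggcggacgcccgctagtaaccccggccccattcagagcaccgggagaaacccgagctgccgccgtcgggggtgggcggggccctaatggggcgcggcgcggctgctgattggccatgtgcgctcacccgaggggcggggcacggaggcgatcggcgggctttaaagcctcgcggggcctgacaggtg
Srebf1, region upstream of both main starts, chr11:60222776-60222976, plus strand, sterol regulatory element in capitals (on the minus strand): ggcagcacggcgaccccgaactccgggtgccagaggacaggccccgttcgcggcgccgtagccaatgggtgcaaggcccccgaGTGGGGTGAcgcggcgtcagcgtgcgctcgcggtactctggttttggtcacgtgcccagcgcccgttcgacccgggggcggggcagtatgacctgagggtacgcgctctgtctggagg
Srebf2, promoter region, chr15:82146997-82147197, plus strand, Sp1 boxes and the NF-Y box (on the minus strand) in capitals: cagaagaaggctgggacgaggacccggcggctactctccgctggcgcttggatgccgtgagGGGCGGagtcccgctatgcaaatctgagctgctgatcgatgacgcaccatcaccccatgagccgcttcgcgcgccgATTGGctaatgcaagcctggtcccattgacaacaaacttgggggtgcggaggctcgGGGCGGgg
Insig1, promoter region, chr5:28071230-28071430, plus strand, Sp1 boxes in capitals: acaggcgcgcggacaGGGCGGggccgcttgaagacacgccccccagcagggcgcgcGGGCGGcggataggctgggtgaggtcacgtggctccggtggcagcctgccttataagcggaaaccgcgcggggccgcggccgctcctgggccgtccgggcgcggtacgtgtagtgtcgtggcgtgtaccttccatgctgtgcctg
Scap, region in the first intron, chr9:110348989-110349189, plus strand, kappa B element in capitals (on the minus strand): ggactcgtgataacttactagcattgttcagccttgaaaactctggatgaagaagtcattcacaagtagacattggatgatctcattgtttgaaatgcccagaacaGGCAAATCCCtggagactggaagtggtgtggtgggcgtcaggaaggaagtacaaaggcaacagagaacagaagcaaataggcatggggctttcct
The LXR element stood in 1 of the 10 promoters of these genes, against 0.719% of all 32817 promoters of 300 bases, and in 0 of the 40 regions of 200 bp, against 0.464% of all regions. The sterol regulatory element stood in 0 of the 10 promoters, against 1.24% of all, and in 1 of the 40 regions, against 0.922%. CCAAT was found in 5 of 10 promoters (37.4% of all) and 12 of 40 regions (22.1%), GGGCGG in 8 (35.6%) and 10 (15.9%), and the kappa B element in 4 (20.7%) and 9 (13.8%). No Stard4 promoter was among the 10 searched, where the Scap promoters overlap each other, and no Stard4 sequence is shown. A match is only a match of letters, and a window without one says nothing of the factor.

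The LXR and SREBP peaks of GW3965-treated cells covered partly the same and partly different regions of the set. The labels name 2 LXR libraries but only 1 SREBP library of these cells. With at least 1 bp shared, 10 of the 40 regions (25%) overlapped 1 of the 24480 LXR peaks, against 21.9% of all 97113 regions. For the 27651 SREBP peaks it was 13 regions (32.5%), against 21.6% of all, and for the 44251 p300 peaks 13 regions (32.5%), against 33.3%. With at least 50% of the region covered, the SREBP shares were 22.5% and 19.2%. The SREBP-1c start region (chr11:60210473-60210596) lay under a peak of all 3 factors, with the LXR element of the promoter just outside it, and so did the region with the sterol regulatory element upstream (chr11:60222825-60222927), while the SREBP-1a start region (chr11:60220573-60220675) lay under none. The promoter regions of Srebf2 (chr15:82147046-82147148, with p300), Insig1 (chr5:28071278-28071382) and Stard4 (chr18:33213993-33214108) overlapped SREBP but not LXR peaks, that of Insig2 (chr1:121327818-121327944) overlapped both, and that of Scap (chr9:110333190-110333332) overlapped none. Insig1 also had regions under LXR, SREBP and p300 peaks at +517 bp in its first intron and, further away, at -7160, -7296 and -34103 bp. Insig2 had 1 at -1920 bp inside an endogenous retroviral repeat (ORR1B1). At -66791 bp Insig1 had a region under LXR and p300 but not SREBP peaks, with 1.31 to 13.5 H3K27ac tags over the timed libraries. Srebf2 had a region under an LXR peak alone at +4938 bp in its first intron.

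In the comparison of LPS with PBS, which asks how the macrophages' response to a bacterial signal reaches these genes, H3K27ac stood higher at the promoter regions of Srebf2 and Stard4 and at 2 regions inside the first intron of Scap after 2 h, and at the SREBP-1c start and the Stard4 promoter after 6 h. None of these passed in the model with groups alone, and all passed once the replicate number was a term (the paired model). At 6 h only the replicate 2 LPS library had a vehicle library of its own replicate. The Insig2 promoter region had almost the same level in both groups. In the linear model across all regions (limma, on log2 of normalised tags + 1, adjusted over all regions, threshold 0.05), 0 of the 34 regions with enough H3K27ac tags to test were called at 2 h, where 5.14% of all 77387 tested regions were, and 0 at 6 h, where 0.676% were. At an unadjusted p under 0.05, 4 of the 34 passed at 2 h and 7 at 6 h, and edgeR called 0 at both times. With the replicate number as a term, 5 of 34 (14.7%) were called at 2 h, against 23% of all regions, and 2 of 34 (5.88%) at 6 h, against 9.18%. All of the called regions of the set were higher with LPS. Of all regions, 11.8% were called higher at 2 h and 5.07% at 6 h, so in that direction the set stood near the table as a whole. The median log2 difference over the 34 was 0.20 at 2 h (all regions 0.01) and 0.65 at 6 h (all regions -0.01), or 0.34 at 6 h with the replicate term (all regions -0.03).

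**Figure D1:**
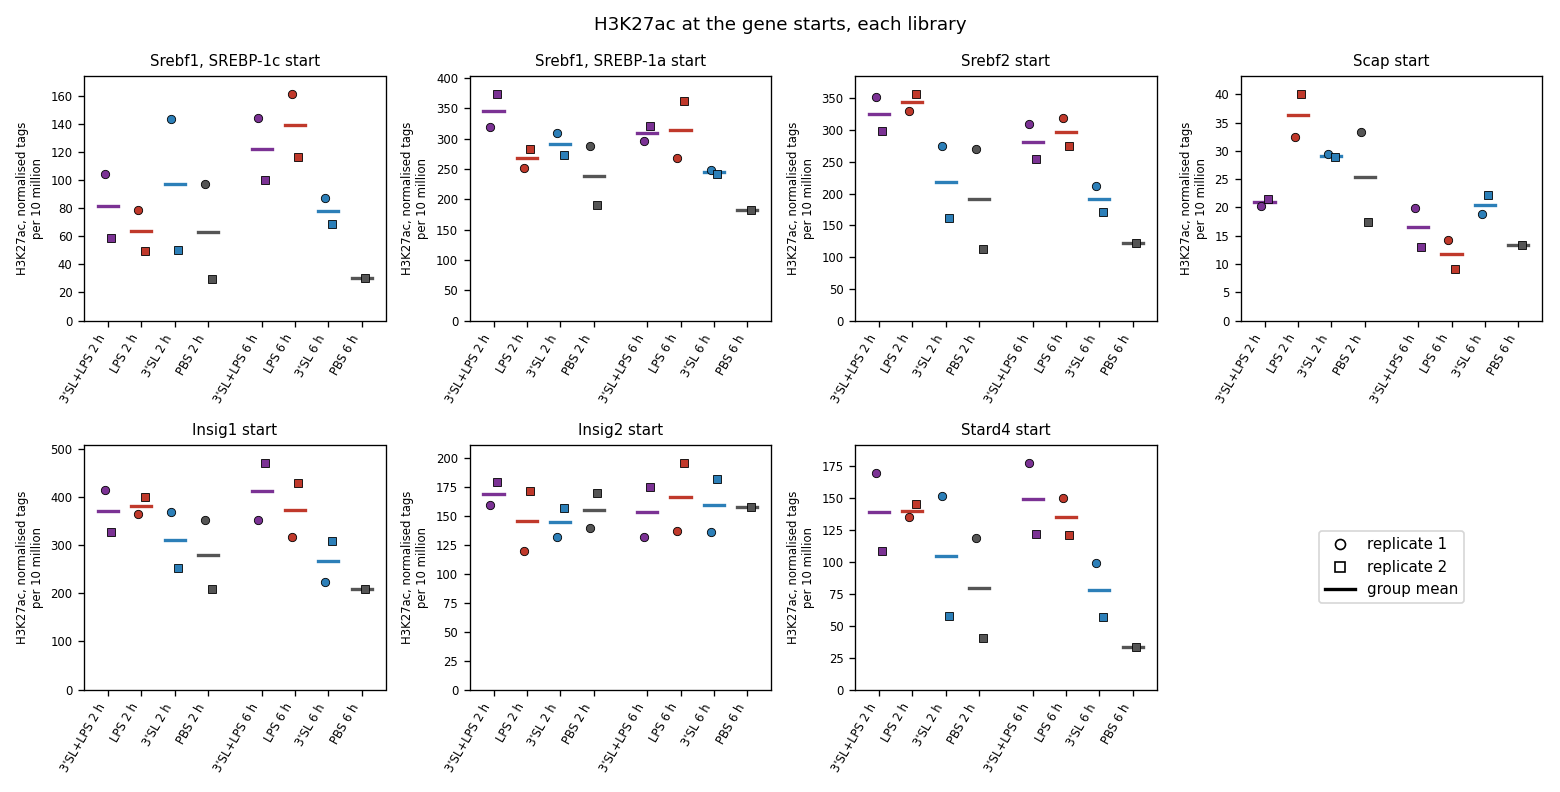
H3K27ac at the region nearest to each gene start (Srebf1 with both main starts), in normalised tags per 10000000 reads, for each library (circle, replicate 1; square, replicate 2), with lines for group means. At Srebf2, for example, LPS libraries at 2 h sat at 330 and 357 and PBS libraries at 270 and 113, and Insig2 was between 120 and 195 in every library plotted.

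Srebf2, the regulator of cholesterol synthesis genes, had 330 and 357 normalised H3K27ac tags (replicates 1 and 2; per 10000000 reads) at its promoter region (at -172 bp from the start) after 2 h of LPS, against 270 and 113 in PBS cells. Both LPS libraries lay above both PBS libraries, and the PBS libraries lay far apart. The log2 difference was 0.97 ± 0.39 (SE), with a limma adjusted p of 0.202 for groups alone and 0.016 with the replicate term (edgeR with that term 0.0209). Within replicate 1 alone it was 0.29 and within replicate 2 alone 1.65, so it was larger in the replicate 2 pair. After 6 h the LPS libraries had 319 and 275 against 122 in the PBS library, a difference of 1.27 ± 0.48 with limma adjusted p of 0.278 and, with the replicate term, 0.0604. The region next to it, at -308 bp (chr15:82146909-82147013) and sharing most of the same window, had 346 and 405 tags in LPS cells against 286 and 120 in PBS cells at 2 h, with a limma adjusted p of 0.0148 in the paired model. p300 at the Srebf2 promoter region measured 125 and 97.1 normalised tags after 2 h of LPS against 38 in the PBS library, and 136 and 67.7 after 6 h against 33.1. All LPS libraries were above the single vehicle library, and the limma adjusted p was 0.452 and 0.612. The replicate 1 p300 libraries read high at this promoter under every treatment, with 150 and 138 after 3'SL alone at 2 h and 6 h.

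Srebf1 was measured at both of its main starts and upstream of a further annotated one. At the start of SREBP-1c, the isoform that drives fatty acid synthesis genes, LPS libraries had 161 and 117 tags after 6 h, against 30.3 in the PBS library. Both were several times the vehicle value, with a log2 difference of 2.14 ± 0.75 and limma adjusted p of 0.241 for groups alone, and 1.72 ± 0.42 and 0.0189 with the replicate term (edgeR with that term 0.0301). Within replicate 2, to which the only 6 h vehicle library used belongs, the difference was 1.91. After 2 h the LPS libraries had 78.5 and 49.5 tags and the PBS libraries 97 and 29.8. The groups overlapped (difference 0.21 ± 0.61, limma adjusted p = 0.91), and the signs within the replicates were opposite, -0.30 in replicate 1 and 0.71 in replicate 2. Between the 6 h and the 2 h LPS libraries the difference was 1.13 ± 0.61, with limma adjusted p of 0.914 and 0.103 in the paired model, and the difference between the LPS responses at 6 h and 2 h was not called in either model, with an adjusted p of 0.559 in the paired one. The vehicle library without a time label had 74.3 tags here on the authors' scale.

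The start of SREBP-1a, the isoform known to be abundant in macrophages, had 252 and 283 tags after 2 h of LPS against 287 and 190 in PBS cells, and 268 and 362 after 6 h against 183. The 2 h groups overlapped, and the 6 h LPS libraries were above the vehicle library (difference 0.77 ± 0.33, limma adjusted p = 0.354, and 0.108 in the paired model). Transcripts from this start encode 1134 or 1129 residues in the RefSeq annotation and that from the SREBP-1c start 1110. The transcript of the further start (chr11:60222581) encodes 1103 residues and begins as neither SREBP-1a nor SREBP-1c. The region with the sterol regulatory element is placed at -295 bp from that further start. The upstream region with the sterol regulatory element had 120 and 172 tags after 2 h of LPS against 200 and 153 in PBS cells, and 220 and 214 after 6 h against 139. Its LPS libraries thus lay around or below vehicle at 2 h and above it at 6 h, without a call at either time. p300 at the SREBP-1c start was 15.2 and 25 after 2 h of LPS against 29.6, and 42.4 and 32.6 after 6 h against 27.7. At the SREBP-1a start the p300 input library, on the authors' scale, had 19.4 tags, within the 6.34 to 32.4 tags of the p300 libraries.

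Scap had the region with the largest H3K27ac difference in the set at 2 h, and it was not the promoter. In the first intron, 15733 bp past the start (chr9:110349037-110349141, inside a LINE-1 repeat fragment, under a p300 peak), LPS libraries had 64.3 and 60.4 tags after 2 h, against 13.9 and 6.17 in PBS libraries. The groups were far apart, 6.14-fold on the scale of tags + 1 (log2 2.62 ± 0.79), with a limma adjusted p of 0.0859 for groups alone and 0.000835 with the replicate term, where edgeR gave 0.000551. The difference had the same direction in replicate 1 (2.14) and replicate 2 (3.10). After 6 h the LPS libraries had 32.1 and 10.5 tags against 6.23, which was not called (1.43 ± 0.97, limma adjusted p = 0.589). The 6 h LPS libraries were both below the 2 h ones, by 1.70 ± 0.79 on the log2 scale, with limma adjusted p of 0.888 and 0.0762 in the paired model. The input libraries had 5.6 and 3.41 tags there on the authors' scale.

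p300 at the same intronic region was also higher after 2 h of LPS in the paired model. LPS libraries had 85.9 and 47.1 normalised p300 tags after 2 h, against 2.11 in the PBS library, and 31.2 and 2.51 after 6 h, against 6.4. The 2 h libraries stood far above vehicle and the 6 h libraries on both sides of it. The log2 difference at 2 h was 4.38 ± 1.26 with a limma adjusted p of 0.0851, and 3.53 ± 0.87 with 0.00866 in the paired model (edgeR with that term 0.0349). It rests on 94 tags in the LPS libraries and 1 tag in the vehicle library, a ratio of 31.7 with a 95% counting interval of 5.56 to 1267, which covers counting error only. With 3'SL and LPS together the region had 68.9 and 47.3 p300 tags and 59.5 and 38.4 H3K27ac tags at 2 h, so 4 of 4 LPS-treated libraries of each mark at 2 h were above every library without LPS.

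**Figure D2:**
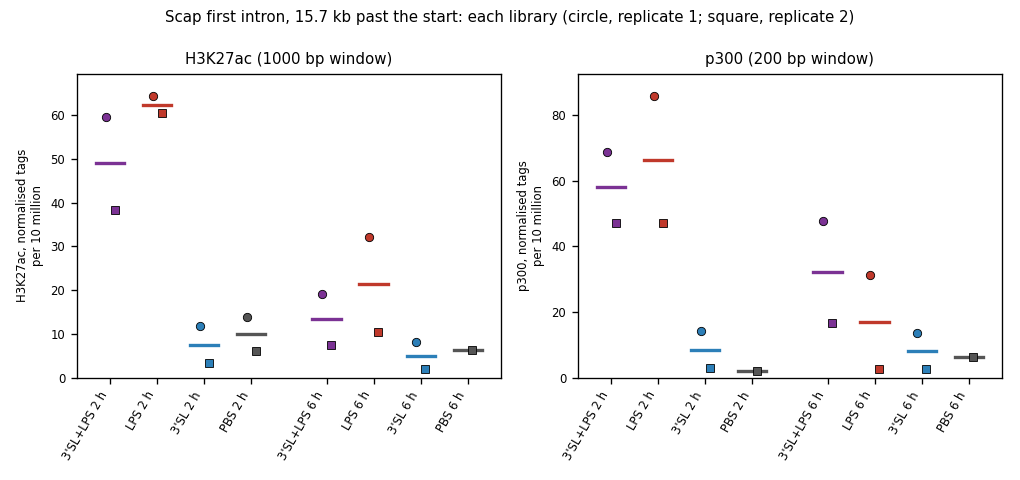
H3K27ac (left) and p300 (right) at the region 15733 bp past the Scap start, in normalised tags per 10000000 reads, for each library, with lines for group means. Libraries with LPS at 2 h, with or without 3'SL, sat between 38.4 and 64.3 for H3K27ac and between 47.1 and 85.9 for p300, above all libraries without LPS.

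A neighbouring region of the Scap intron, 19088 bp past the start (chr9:110352385-110352503, under SREBP and p300 peaks), had 18.3 and 27.7 H3K27ac tags after 2 h of LPS against 5.54 and 9.25 in PBS cells. Both LPS libraries were higher (1.52 ± 0.53; limma adjusted p = 0.139, and 0.0355 in the paired model), and its p300 was 20.8 and 14.7 against 16.9, with no such difference. The Scap promoter itself carried little acetylation, with 32.5 and 40 tags after 2 h of LPS against 33.3 and 17.5, and 14.3 and 9.18 after 6 h against 13.4. The 6 h LPS libraries were below the 2 h LPS libraries by 1.57 ± 0.46 on the log2 scale, the smallest unadjusted p of the set in that comparison, with adjusted p of 0.636 and 0.0642 in the paired model. The Scap promoter's p300 tags, 2.11 to 31.9 over all libraries, spanned the 17 tags of the input library. In the 6 h against 2 h comparison of LPS, no region of the set was called in either model. With groups alone 0% of all tested regions were called for either mark, and in the paired model 1.78% for H3K27ac and 0.138% for p300. With groups alone, at an unadjusted p under 0.05 the set had 2 H3K27ac regions and 1 p300 region, while edgeR called 0 of either in both models.

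The INSIG genes, which hold the SCAP and SREBP complex in the endoplasmic reticulum, had no called H3K27ac region at their starts. Insig1, itself an SREBP target, had the highest promoter acetylation of the set, with 365 and 399 tags after 2 h of LPS against 351 and 210 in PBS cells, and 316 and 429 after 6 h against 209. The LPS libraries were above the vehicle libraries at both times, on the log2 scale by 0.49 ± 0.33 (limma adjusted p = 0.487) and 0.81 ± 0.41 (adjusted p = 0.438), and neither was called in the paired model (0.238 and 0.18). Within replicate 1 the 2 h difference was 0.06 and within replicate 2 it was 0.92. The region at -325 bp, which shares that window in part, had 279 and 331 tags after 2 h of LPS against 294 and 166, and that at +517 bp had 341 and 360 against 316 and 191. p300 at the Insig1 promoter region was 29.1 and 30.9 after 2 h of LPS against 29.6. Insig2, the other retention protein, had 120 and 171 H3K27ac tags after 2 h of LPS against 139 and 170, and 137 and 195 after 6 h against 158. Here the groups overlapped at both times, with log2 differences of -0.10 ± 0.32 (limma adjusted p = 0.914) and 0.05 ± 0.39 (0.976).

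A cluster of 4 regions lay between -33521 and -34448 bp from the Insig1 start, and H3K27ac there was lower in LPS than in PBS libraries, without passing the test. The region at -34103 bp (chr5:28037227-28037391, under LXR, SREBP and p300 peaks) had the highest H3K27ac of the Insig1 regions more than 1 kb from the start. LPS libraries had 156 and 146 tags there after 2 h against 197 and 210 in PBS cells, and 149 and 165 after 6 h against 244. At both times both LPS libraries lay below every vehicle library, by -0.43 ± 0.30 (limma adjusted p = 0.505) and -0.63 ± 0.36 (adjusted p = 0.508, and 0.19 in the paired model), so the difference did not pass. The neighbour at -34448 bp, whose window overlaps, had 87.3 and 75 against 124 and 124 at 2 h, and 88.5 and 98.3 against 182 at 6 h. p300 at -34103 bp was 51.2 and 33.8 after 2 h of LPS against 44.4, and 17.8 and 26.3 after 6 h against 51.2.

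**Figure D3:**
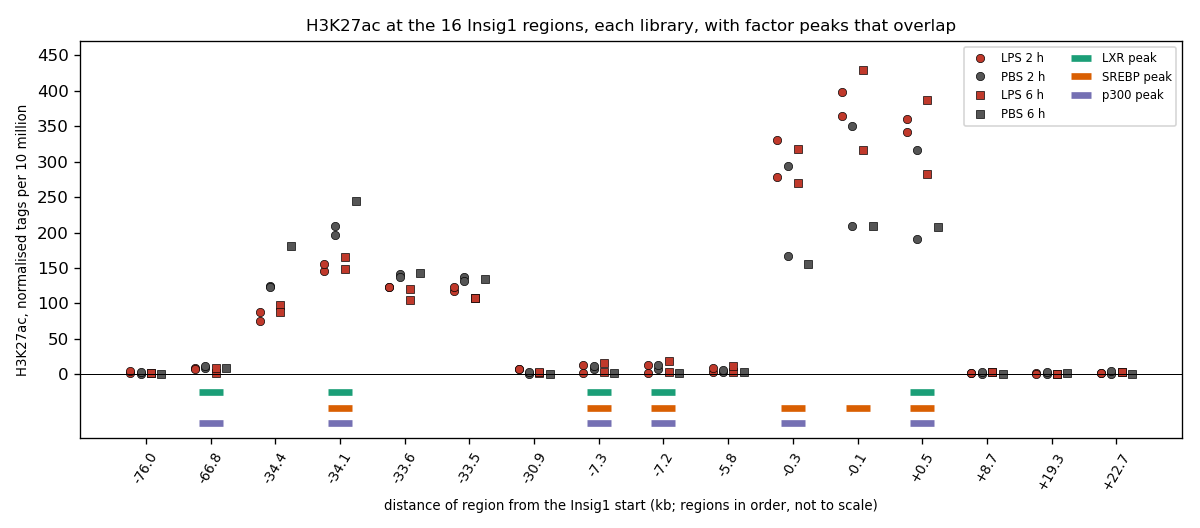
H3K27ac in normalised tags per 10000000 reads at the 16 Insig1 regions, ordered by distance from the start but not to scale, for each LPS and PBS library at 2 h (circles) and 6 h (squares), with bars below for LXR, SREBP and p300 peaks that overlap. LPS libraries were above vehicle at the region nearest to the start (365 and 399 against 351 and 210 at 2 h). They overlapped it at -325 bp at 2 h (279 and 331 against 294 and 166). At -34103 bp they were below it (156 and 146 against 197 and 210).

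The only region of the set that passed with groups alone was a p300 window in the same cluster, at -33521 bp from the Insig1 start (chr5:28037840-28037942), under no LXR, SREBP or p300 peak. LPS libraries had 18 and 20.6 normalised p300 tags there after 2 h against 0 in the PBS library, and 24.5 and 21.3 after 6 h against 3.2. The limma adjusted p at 2 h was 0.0267, and 0.0056 in the paired model. The vehicle library gave 0 tags, so the difference is given as at least 3.04-fold higher, with 3 tags as the floor of that library against 27 tags in the LPS libraries. The call was lost with a pseudocount of 4 (adjusted p = 0.0953), in edgeR (0.201, and 0.0837 with the replicate term), with the authors' scaling (0.643) and without either LPS library. Of the 1447 p300 regions called over the table, 709 had 0 vehicle tags and 350 had 1 to 3. H3K27ac at this region was 123 and 117 after 2 h of LPS against 131 and 137. In all, 1 of the 26 regions tested for p300 (3.85%) was called at 2 h, where 2.33% of all 62225 were, and 2 of 26 (7.69%) in the paired model, where 7.08% were; at 6 h it was 0 of 26, where 0.423% were. At an unadjusted p under 0.05 there were 4 at each time, and edgeR with groups alone called 0 at both. The median p300 difference over the 26 was 0.63 at 2 h (all regions 0.11) and 0.47 at 6 h (all regions -0.05), or 0.07 at 6 h in the paired model.

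Stard4, the cholesterol carrier and SREBP target, had 135 and 145 H3K27ac tags at its promoter region after 2 h of LPS, against 118 and 40.1 in PBS cells, and 150 and 121 after 6 h against 33. All LPS libraries were above all timed vehicle libraries, and replicate 1 of the vehicle came close to them. At 2 h the log2 difference was 1.01 ± 0.57, with limma adjusted p of 0.381 for groups alone and 0.0433 with the replicate term (edgeR with that term 0.0524). At 6 h it was 2.00 ± 0.70 with 0.239, and 1.63 ± 0.43 with 0.0265 in the paired model (edgeR 0.0433). Within replicate 1 the 2 h difference was 0.19, and within replicate 2 it was 1.83 at 2 h and 1.84 at 6 h. The second region, 400 bp past the start, had 158 and 115 tags after 6 h of LPS against 47.2 in the PBS library. p300 at the Stard4 promoter region was below the vehicle library at 2 h and above it at 6 h, without a call, with 16.6 and 20.6 after 2 h of LPS against 27.5, and 22.3 and 18.8 after 6 h against 12.8.

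**Figure D4:**
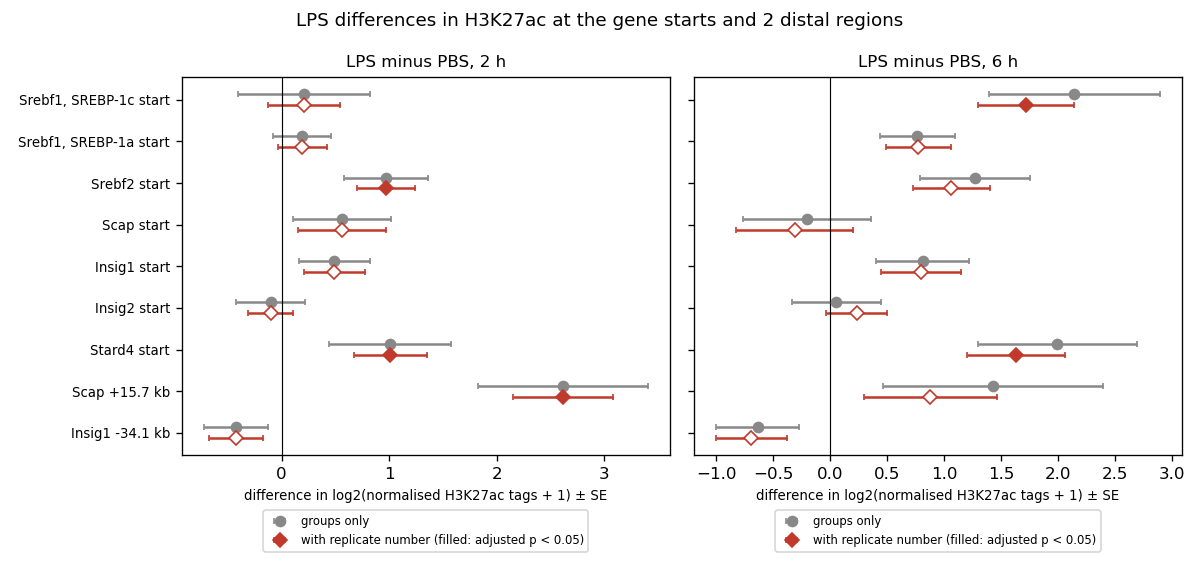
Log2 difference in normalised H3K27ac tags (+ 1) between LPS and PBS at 2 h (left) and 6 h (right) for the start regions and 2 distal regions, from the model with groups alone (grey) and with replicate number (red; filled where the adjusted p was under 0.05), with bars of 1 SE. The Scap intronic region stood at 2.62 ± 0.79 at 2 h, the SREBP-1c start at 2.14 ± 0.75 at 6 h, and the Insig1 region at -34103 bp at -0.63 ± 0.36 at 6 h.

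Outside the starts and the Insig1 cluster, the regions not yet described had at most 62.9 H3K27ac tags in any timed library. Beside the starts, the region at -586 bp from the further Srebf1 start (chr11:60222581) had 96.1 to 203 and that at 272 bp of Insig2 56.1 to 93.1. Beside the cluster and the promoter, Insig1 had regions at -7160 and -7296 bp with at most 21.5 and 27.2 H3K27ac tags in any timed library, and p300 there reached 38.3 and 24.6 tags. Insig2 had neighbouring regions at 12395 and 12717 bp past its start with 10.7 to 51.1 and 14.1 to 62.9 H3K27ac tags, and too few p300 tags to test. The Srebf2 intronic region at 4938 bp under the LXR peak had 8.08 to 36.2 H3K27ac tags and 1.85 to 23.5 p300 tags. Of the 40 regions, 6 had too few H3K27ac tags to be tested, with 0 to 6.04 in any timed library, and 14 too few p300 tags, with 0 to 14 in any. The regions at -76042, 8746, 19328 and 22741 bp from Insig1, 78395 bp from Insig2 and -28850 bp from Srebf1 were tested for neither mark.

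The question of whether 3'SL changes the chromatin of these genes, with LPS or without it, gave no called region in the set. In the comparison of 3'SL with LPS against LPS alone, 0 of 34 H3K27ac and 0 of 26 p300 regions were called at 2 h or 6 h, and 0% of all regions were; unadjusted p under 0.05 was met by 1 and 0 H3K27ac regions and by 0 and 1 p300 regions at 2 h and 6 h, and edgeR called 0 members. The Srebf2 promoter region had 353 and 298 H3K27ac tags with 3'SL and LPS at 2 h, against 330 and 357 with LPS alone, a difference of -0.08 ± 0.39. At Insig1 it was 413 and 327 against 365 and 399 (-0.05 ± 0.33), and at Stard4 170 and 109 against 135 and 145 (-0.04 ± 0.57). In each of these the groups overlapped. The SREBP-1c start had 104 and 58.6 tags with 3'SL and LPS at 2 h against 78.5 and 49.5 with LPS, and 144 and 100 at 6 h against 161 and 117, differences of 0.32 ± 0.61 and -0.19 ± 0.61. The SREBP-1a start had 319 and 373 at 2 h against 252 and 283 (0.37 ± 0.27), and the Scap promoter 20.3 and 21.5 against 32.5 and 40 (-0.76 ± 0.46). Both of these groups stood apart without overlap, and neither difference passed (limma adjusted p = 1 for both). At the Scap intronic region, H3K27ac was 59.5 and 38.4 at 2 h against 64.3 and 60.4. Leaving out either of the replicate 2 libraries whose labels disagree with their titles cannot show their part in this result. No region was called with them in, and without either its group is left with a single library.

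3'SL alone against PBS, with groups alone, likewise gave 0 of 34 H3K27ac regions at both times and 0 of 26 p300 regions, where 0.0145% of all p300 regions were called at 2 h and 0% elsewhere. No H3K27ac region of the set met an unadjusted p under 0.05, 1 p300 region did at 2 h and 0 at 6 h, and edgeR called 0 members. The SREBP-1c start had 144 and 50.2 tags with 3'SL at 2 h against 97 and 29.8 in PBS cells, and 87.2 and 68.7 at 6 h against 30.3. Stard4 had 151 and 57.2 at 2 h against 118 and 40.1, and 99.3 and 56.6 at 6 h against 33. In both genes the 3'SL library was above the PBS library of the same replicate at 2 h, by 0.56 and 0.73 on the log2 scale at the SREBP-1c start and by 0.35 and 0.50 at Stard4 (replicates 1 and 2), without a call in either model. The 6 h 3'SL libraries stood above the single vehicle library, also without a call in either model, with differences of 1.33 ± 0.75 for the SREBP-1c start and 1.16 ± 0.70 for Stard4, both with a limma adjusted p of 1. Srebf2 had 274 and 161 at 2 h against 270 and 113. The 3'SL response with LPS minus that without LPS was not called for any region of the set in either model.

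Over the wider pathway, H3K27ac was judged at the region nearest to each gene's start. The called genes of sterol synthesis were higher with LPS, and only in the paired model. All counts of this paragraph and the next are of H3K27ac. The p300 results at these starts are left out, including a call in the LXR and sterol transport list after 2 h of LPS. Of 20 such genes 17 were tested; with groups alone 0 passed at either time, and in the paired model 3 were higher at 2 h (Fdps and Idi1 among them) and 4 at 6 h, with 0 lower. Of all 11356 promoters tested, 3.38% were called at 2 h and 0.167% at 6 h with groups alone. In the paired model 17.2% were called at 2 h, 11.5% higher and 5.61% lower, and 4.26% at 6 h, 2.2% higher and 2.06% lower. The 3 of 17 called at 2 h were thus near that background. Fdps, farnesyl diphosphate synthase, was higher by 1.98 ± 0.43 at 6 h (limma adjusted p = 0.00972 in the paired model and 0.211 for groups alone), with 222 and 138 tags in LPS cells against 31.2. The later enzymes Hsd17b7 and Sqle were higher at 6 h by 1.89 ± 0.45 (limma adjusted p = 0.0154 in the paired model) and 1.87 ± 0.44 (0.0159). The median difference of the 17 at 6 h was 1.31 with groups alone and 0.87 in the paired model, where the medians of all promoters were -0.03 and 0.01. For 3'SL without LPS against the same single 6 h vehicle library it was 0.77 and 0.32, where all promoters had -0.03 and 0.02. Both comparisons share that vehicle library, so what it adds to each median cannot be told apart from an effect of the treatment. These lists were drawn up with earlier results of these data known.

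Among 10 genes that act in SREBP processing or in the turnover of its partners, 1 passed at 2 h of LPS in both models, where 3.38% and 17.2% of all promoters did, and 0 at 6 h. It was Rnf145, a ubiquitin ligase that acts on SCAP, with 141 and 163 tags in LPS cells against 58.2 and 31.9 in PBS cells (1.79 ± 0.42, limma adjusted p = 0.0325). Of 11 fatty acid synthesis genes 9 were tested, with 0 called for groups alone and, in the paired model, 2 lower at 2 h (Fads1, a desaturase, and Lpin1, a phosphatidate phosphatase) and 1 lower at 6 h (Lpin1), where 5.61% and 2.06% of all promoters were lower. Of 11 genes of LXR and sterol transport 10 were tested, with 0 called for groups alone and, in the paired model, 1 higher at 2 h (Stard5) and 3 lower (Mylip, Npc1 and Soat1), where 11.5% and 5.61% of all promoters were, and 0 at 6 h. As a check of the LPS treatment, 4 of 5 tested LPS-induced genes (Cxcl10, Socs3, Tnf and Tnfaip3) were higher at 2 h in both models and, at 6 h, 0 for groups alone and 4 in the paired model.

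The H3K27ac pattern of each promoter over the 8 treatment groups was set beside that of 5497 promoters with at least 100 tags, as a description over 8 means that share libraries within groups and of which the 6 h PBS one is a single library. Stard4 was most like Hmgcs1 (Pearson r = 0.995) and Fdps (0.991), and Insig1 had Cyb5b (0.988) among its closest. Hmgcs1 and Fdps are enzymes of the mevalonate pathway. Srebf2 was most like Fam210a (0.992) and Nfkbib (0.985), the SREBP-1a start most like 2310068J16Rik (0.973) and Erg28 (0.962), and Scap most like E130309D02Rik (0.950) and Atp1b3 (0.928). Insig2 had no close match, with Xpo1 (0.727) and Med17 (0.709) at the top.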

How the data were processed

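H3K27ac and p300 ChIP-seq reads had been aligned to mm10 with Bowtie2 and counted with HOMER, and DESeq2 is also named, per the submitters' processing notes, which give no versions. The values are signal in the deposited tables, tags scaled to a total of 10000000 a library per the file headers, with each library's total in the header. Peak lists are positions as deposited by the authors, and how they were called is not given for the LXR, SREBP and p300 lists in the sources used here. Multiplying by the totals gave whole tags for 100% of values (within 0.05). Regions were kept by edgeR's filterByExpr and rescaled by the tags in tested regions and TMM factors ("normalised tags"). They were fitted with limma 3.58.1 (trended variance, log2 of value + 1, 8 groups of a mark together, Benjamini-Hochberg over 77387 H3K27ac or 62225 p300 regions). The fit was tried on simulated tags without shared replicate deviations. For p300 it then made false calls where the vehicle library had no tags, which a pseudocount of 4 mostly removed. Log2 differences understate the change of low regions. Differences are given with their SE.

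Libraries with the same replicate number deviated together from their group means (r of 0.445 to 0.67 over 21 H3K27ac pairs of groups and 0.192 to 0.377 over 15 p300 pairs). A fit with the number as a term ("paired model") is therefore given where it changed a call. Where the only vehicle library used was of replicate 2, the replicate 1 LPS library had no partner. The term there is an adjustment estimated from the groups with both replicates, not a full pairing. Replicates differed beyond counting noise (chi-square per degree of freedom of 8.34 or more). Alternatives were edgeR 4.0.16 on the whole tags, the authors' scaling, a pseudocount of 4, no filter, a 50 kb limit and leaving out each library. edgeR called 3499 and 96 H3K27ac regions at 2 h and 6 h of LPS over the whole table, and 79 and 0 p300 regions. Columns that matched no sample title uniquely (6) were not used, which left out vehicle libraries, nor were the p65 lists. R 4.3.3 and Python 3.11.15 were used.

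The genes and lists were chosen with earlier results of these data known. Named were the region nearest to each start, each region past the threshold, the distal region with the highest H3K27ac and regions under LXR or SREBP peaks, and for likeness the closest promoters, of which the first pair is given, except for 1 gene not reported here; other regions and neighbours named were chosen after their values were seen.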

Additional observations from a re-analysis of the deposited data

Results flagged for a closer look

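One vehicle H3K27ac library carries no time label and enters no comparison. On the authors' scale of tags per 10000000 its signal at the start regions was above the higher of the 2 input libraries in all 6 genes. It had 173 tags at Insig1 (input 7.51), 160 at the SREBP-1a start of Srebf1 (11.2), 140 at Srebf2 (12.3), 108 at Insig2 (11.2), 64.4 at Stard4 (5.6) and 14.9 at Scap (5.46).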

How the results depend on the processing

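In 11 of 14 comparisons the number of regions called with the replicate block was close to that of groups alone. For H3K27ac with LPS it was 5 against 0 at 2 h and 2 against 0 at 6 h, and edgeR with the block gave 4 and 2. For p300 after 2 h of LPS it was 2 against 1, while the authors' scaling, a pseudocount of 4 and edgeR without the block each gave 0, and leaving out either LPS library gave 0 to 0. Removing the filter or using the 50 kb limit changed no count. The cause of these shifts was not tested. At the start regions 881 values kept their side of the threshold, whatever their direction, or moved within their spread. Newly past it were 5 (Srebf2 at 2 h and Stard4 at 2 h and 6 h, with the block in limma, edgeR or both), and 14 within-replicate values moved. A reversal was counted only where a fit called the region, so the 0 found says little of direction. Leaving out the vehicle library was not possible where it was the only one, and p300 values of under 4 vehicle tags are limited by depth.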
